A study of Rattus norvegicus with 9 samples.

Results

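The cells described here were chosen by a gate on single-cell counts that was meant to collect natural killer (NK) cells from the bone marrow and callus of the osteotomised rat tibia. A cell was a member if it held at least 2 unique molecular identifiers (UMIs, each counted as 1 captured RNA molecule) of Nkg7, at least 2 UMIs of Klrd1, Gzmb and Gzmm together, no UMI of the T cell receptor chains Cd3d, Cd3e and Cd3g, at most 1 UMI of the B cell receptor chains Cd79a and Cd79b, and fewer than 20 UMIs per 10000 of the early granulocyte genes Mpo, Elane, Prtn3 and Ctsg. The gate kept 275 of 114232 cells (0.241%). These 13 genes chose the members, so their values are given as a description and were not tested.

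Radial extracorporeal shock waves were applied over a tibial osteotomy in Sprague-Dawley rats of 6 to 8 weeks. The study asked whether this promoted the healing of a skin wound of the foot. Its single-cell part was made to find which cells were the source of small extracellular vesicles in this healing. In all rats a circular piece of bone with a diameter of 3 mm was cut at the proximal tibia and a 4 mm wound was made on the foot. TO rats had the osteotomy alone and TOE rats had the osteotomy with shock waves over the site on days 2 and 4, so that rats sampled after the day 2 session had received 1 session. Tissue from the osteotomy was dissociated and sequenced as 1 droplet library per condition, named by arm, day of the session and hours after it. The 8 libraries used were TO 2d 0h, TO 2d 4h, TO 4d 4h, TO 4d 24h, TOE 2d 4h, TOE 2d 24h, TOE 4d 4h and TOE 4d 24h, and the sample labelled TO 2d 24h was not analysed here. The design text gives 9 rats and 9 samples but does not say which rats gave which library, so every p-value below measures the spread between libraries of different conditions and not between rats of 1 condition.

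Each library held 95954800 to 144146202 UMIs, and 12329 to 16945 cells per library passed the filters, which were a minimum of 200 genes and a maximum of 20% mitochondrial UMIs. The libraries shared 38 to 108 kept barcodes in each pair, and no barcode of a member occurred as a member in another library. The 4 libraries collected at 4 h stood apart from the 4 collected at 0 h or 24 h also in cells outside the gate. Levels in kept cells outside the gate, here and below, leave out the T cells of the later comparisons as well as the members. Among 9095 genes with a mean of at least 10 counts per 1000000 (CPM, UMIs per 1000000 of the sum) in the kept cells outside the gate, 2034 (22.4%) had no overlap between these sets of libraries, against 124 (1.36%) between TO and TOE and 21 (0.231%) between days 2 and 4.

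NK cells are innate lymphocytes that kill infected or altered cells by releasing granules in which perforin (Prf1) opens a path for serine proteases called granzymes. They read their targets through activating and inhibitory receptors, many of them C-type lectins encoded in the NK gene complex, and they depend on interleukin 15 and on the transcription factors T-bet (Tbx21) and Eomes. Mast cells and basophils, which are myeloid cells with a high-affinity receptor for immunoglobulin E, also store serine proteases in granules, and in rodents the chymase-like proteases of these cells are encoded next to several granzymes.

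The genes that decided entry to the gate are shown by the 250 bases before their start of transcription, taken from RefSeq on the rat build GRCr8, with the start of Mcpt8 beside them because this mast cell and basophil protease lies in the same chromosome 15 cluster as Gzmb. Capitals mark exact matches on either strand to a RUNX motif (TGTGGT or ACCACA) or a T-box motif (GGTGTG or CACACC), which name families of factors used in cytotoxic lymphocytes. A GATA motif (AGATAA or TTATCT), of the family that includes the mast cell and basophil factor Gata2, was searched in the same way. RUNX and T-box matches may share bases.
Nkg7, plus strand, chr1:102981247-102981496: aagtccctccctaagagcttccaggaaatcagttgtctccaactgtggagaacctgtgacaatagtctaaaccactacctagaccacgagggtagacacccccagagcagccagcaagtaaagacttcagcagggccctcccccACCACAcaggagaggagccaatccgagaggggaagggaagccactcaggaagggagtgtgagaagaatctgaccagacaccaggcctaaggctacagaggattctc
Gzmb, minus strand, chr15:34462470-34462719: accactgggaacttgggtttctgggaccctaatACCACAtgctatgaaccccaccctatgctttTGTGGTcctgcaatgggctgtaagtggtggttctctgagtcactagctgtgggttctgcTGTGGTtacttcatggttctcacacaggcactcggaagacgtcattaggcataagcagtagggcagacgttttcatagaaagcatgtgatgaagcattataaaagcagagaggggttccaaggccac
Gzmm, minus strand, chr7:10667257-10667506: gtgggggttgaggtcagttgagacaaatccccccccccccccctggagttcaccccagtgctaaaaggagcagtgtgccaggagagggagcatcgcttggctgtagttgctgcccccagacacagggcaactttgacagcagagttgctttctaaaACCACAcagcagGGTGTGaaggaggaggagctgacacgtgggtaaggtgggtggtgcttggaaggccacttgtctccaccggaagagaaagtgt
Mcpt8, plus strand, chr15:33769399-33769648: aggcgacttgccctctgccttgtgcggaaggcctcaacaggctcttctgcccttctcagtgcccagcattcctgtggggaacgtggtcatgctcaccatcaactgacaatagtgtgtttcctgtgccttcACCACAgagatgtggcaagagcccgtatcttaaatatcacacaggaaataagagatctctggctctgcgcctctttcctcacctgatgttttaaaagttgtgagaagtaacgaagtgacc

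The Gzmb window held 3 RUNX matches and the other windows 1 each, and the Gzmm window also held the only T-box match. No GATA match was found in the 4 windows. Of 33469 rat promoter windows of this length, 14.5% held the RUNX letters, 15.4% the T-box letters and 10.3% the GATA letters, so a match in a single window is common. Between Cma1 and Gzmb the RefSeq table listed 29 protein-coding genes on chromosome 15, of which 21 carry granzyme, mast cell protease, chymase or cathepsin G symbols. These genes are closely related copies, and how reads were shared among them by the authors' counting is uncertain.

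The data went against the label for part of the gate. Of the 275 gated cells, 87 (31.6%) held at least 20 UMIs per 10000 of the mast cell and basophil markers Prss34, Ms4a2, Fcer1a, Cpa3, Mcpt8, Gata2, Hdc, Kit and Cma1. These cells are called protease-high below, and the other 188 protease-low. The sum of these markers was 60.7 per 10000 in the lowest protease-high cell, 559 in the median and 1338 in the highest, against a median of 0 and a highest value of 8.32 among protease-low cells. The gap between the groups was wide, with 0 cells between 10 and 20 and 2 between 20 and 100.

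All 87 protease-high cells held Gzmb, none held Klrd1 and 2 held Gzmm, and 85 of them entered the gate through Gzmb alone. Of 9 NK markers outside the gate (Ncr1, Klrb1a, Klrb1c, Klrk1, Klre1, Prf1, Il2rb, Eomes and Tbx21), 77 of these cells held none, 9 held 1 and 1 held at least 2. Protease-low cells had the reverse pattern. Of these, 157 held Klrd1, 187 Gzmm and 69 Gzmb, 180 held at least 2 of the 9 NK markers, 162 held at least 4, and the median was 6. The median depth was close, at 7735.5 UMIs in protease-low and 7813 in protease-high cells, and a doublet score of 0.25 or more was reached by 4 protease-low cells and 0 protease-high cells.

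**Figure D1:**
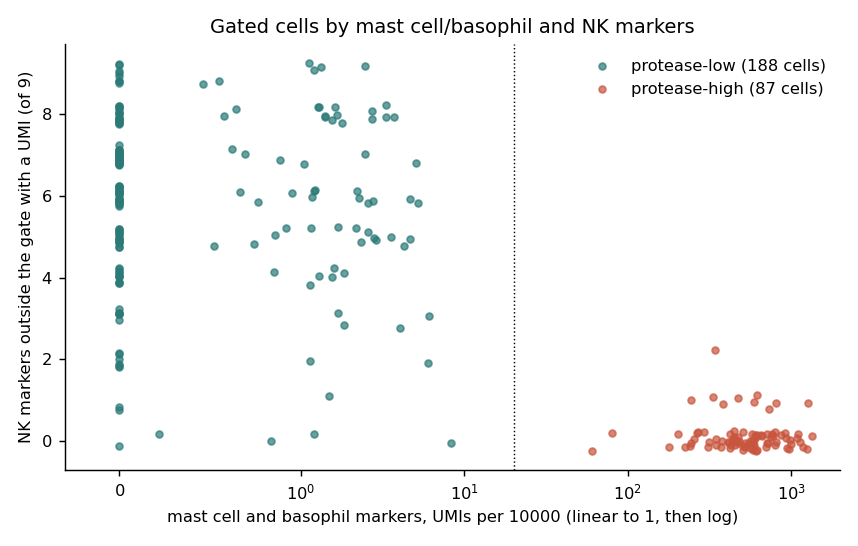
Each point is 1 of the 275 gated cells, placed by the sum of 9 mast cell and basophil markers (UMIs per 10000) and by how many of 9 NK markers outside the gate it held. The 87 protease-high cells lie at or above 60.7 per 10000 and almost all hold 0 or 1 NK marker, whereas 162 of the 188 protease-low cells hold at least 4.

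Only 8 protease-low cells held 1 or 0 of the NK markers, with a median depth of 17644.5 UMIs, and 6 of the 8 had at least 100 UMIs per 10000 of neutrophil or of monocyte and macrophage markers. At the edge of the gate, 27 members held exactly 2 Nkg7 UMIs, of which 12 held at least 2 NK markers and 14 were protease-high. Of 29 members with exactly 2 UMIs of Klrd1, Gzmb and Gzmm, 6 held at least 2 NK markers and 18 were protease-high. Just outside the gate, 94 cells with 1 such UMI met the other limits, of which 4 held at least 2 NK markers. A further 25 cells had 1 Nkg7 UMI and met the other limits, of which 10 held at least 2 NK markers and 11 reached the mast cell and basophil limit. A further 144 cells missed the gate only by holding a Cd3 UMI, and 135 of these held at least 2 NK markers. Of the 144, the 138 with at least 2 Cd3 UMIs are the Nkg7-positive or cytotoxic T cells that serve as a comparison below.

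Receptors of NK cells were frequent in the protease-low cells. Klrb1a, which encodes the NKR-P1A receptor, was found in 88.3% of them, in 0% of protease-high cells, in 18.8% of T cells and in 0.267% of B cells, whose median depths were 7910 and 5881 UMIs. Ncr1, the natural cytotoxicity receptor NKp46, was found in 50.5% of protease-low cells, 3.45% of protease-high cells, 0.476% of T cells and 0.223% of B cells. The share of Klrk1, which encodes the activating receptor NKG2D, was 74.5% in protease-low cells, 5.75% in protease-high cells, 36.5% in T cells and 1.35% in B cells. The B cells were kept cells with at least 10 UMIs of Cd79a and Cd79b together, and their shares serve as a background. The parts of free RNA and of doublets in that background were not tested.

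Summed by library, the Ncr1 level of protease-low cells was 39.0, 96.3, 124, 89.6, 129, 123, 145 and 183 CPM in the library order given above, while its highest level in T cells was 2.43 CPM. Every library therefore lay above the T cells. The sums of protease-low cells, here and below, rest on 25, 19, 20, 28, 24, 32, 33 and 7 cells in the same order. Klrb1a ran from 332 to 566 CPM with a median of 460.5 in protease-low cells, against 82.1 to 273 CPM in T cells that passed the same cytotoxic limits. The sums of these T cells, here and below, rest on 26, 8, 13, 33, 28, 13, 16 and 1 cells in the same order. Klrd1, the CD94 chain that pairs with NKG2 receptors, had 195 to 416 CPM in protease-low cells. The signalling adaptors Tyrobp (DAP12) and Fcer1g (the common Fc receptor gamma chain) reached medians of 1750 and 820 CPM.

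Among granule genes the gate fixed the presence of Nkg7 and of Gzmm or Gzmb in most cells, while Prf1, Gzmk and Gzma were outside it. Nkg7, a membrane protein of cytotoxic granules, had 1893, 1039, 1178, 1415, 1362, 1395, 1099 and 950 CPM in protease-low cells, and Gzmm, a granzyme of NK cells, had a lowest value of 813, a median of 1078 and a highest of 2303 CPM over the libraries. Perforin (Prf1) ran from 77.9 to 294 CPM with a median of 138, and Gzmk from 178 to 836 with a median of 598. Gzma, a tryptase-like granzyme, had a median of 170 CPM and was at 0 in 1 library. Gzmb, the granzyme that cleaves caspases, had 273, 45.6, 27.1, 179, 84.6, 127, 106 and 469 CPM, and 119 of the 188 cells held no Gzmb UMI.

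Transcription factors of the lineage were found as well. Tbx21 was detected in 75% of protease-low cells at 226 to 385 CPM per library, and Eomes in 51.1% at 57.2 to 157 CPM. Neither had a UMI in the 87 protease-high cells. Rora, a nuclear receptor abundant in innate lymphoid cells, had 1488, 1663, 1073, 1134, 512, 1222, 1248 and 469 CPM, above the 12.2 to 278 CPM of T cells in every library. Il2rb, the shared receptor chain for interleukins 2 and 15, had 205 to 428 CPM and Il12rb2, a receptor chain for interleukin 12, had 137 to 639 CPM. Of the T cell genes outside the gate, Themis had no UMI in protease-low cells, Cd4 and Cd8b had 1 each, and Cd8a lay at 46.5 to 125 CPM, against 301 to 973 CPM in T cells that passed the cytotoxic limits.

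The secreted products included several chemokines. Ccl5, a chemokine that NK and T cells store and release, was detected in 84.0% of protease-low cells and had 6913, 4298, 2650, 6177, 5488, 5607, 6316 and 3961 CPM. Xcl1, which attracts cross-presenting dendritic cells, ran from 275 to 1322 CPM with a median of 454, and the inflammatory chemokines Ccl3 and Ccl4 had medians of 328 and 617 CPM. Ifng and Tnf, the cytokines of activated NK cells, had medians of 12.8 and 1.54 CPM. The proliferation genes Mki67 and Top2a were present in every library, from 63.4 to 569 and from 73.2 to 471 CPM.

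**Figure D2:**
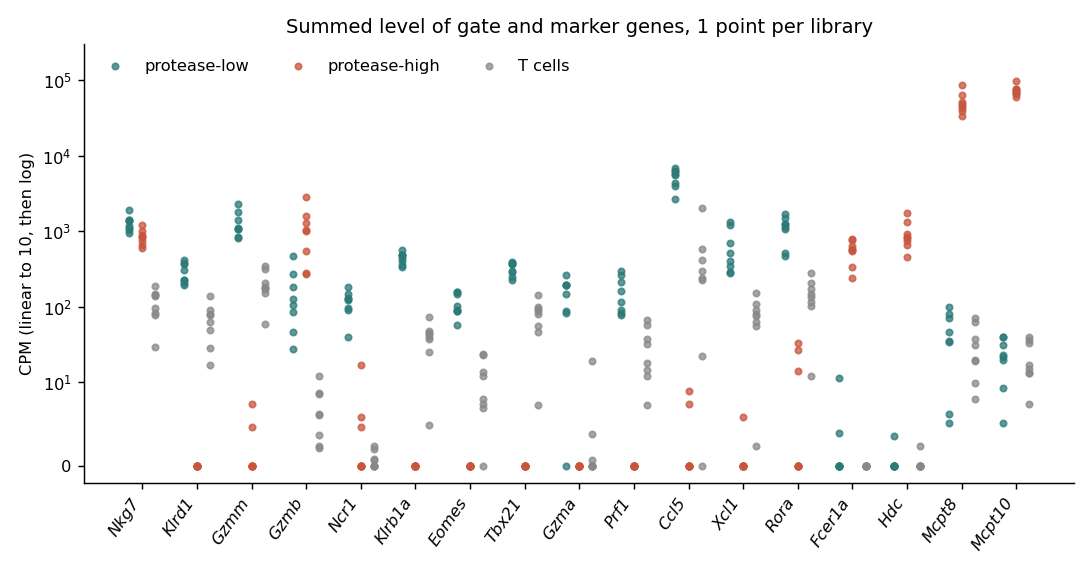
Levels (CPM of UMIs summed per library, on an axis that is linear to 10 and logarithmic above) of gate genes, NK genes outside the gate and mast cell and basophil genes in protease-low cells, protease-high cells and T cells, with 1 point per library. Ncr1, Klrb1a, Tbx21 and Eomes separate protease-low cells from protease-high cells, Fcer1a, Hdc and Mcpt8 do the opposite, as the division by such markers fixed, and Nkg7 is present in both.

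The protease-high cells carried the granule contents of mast cells and basophils at levels that were a large part of their RNA. Mcpt10, a mast cell protease of the chromosome 15 cluster, had 58917 to 95980 CPM with a median of 69940, and Mcpt8, a basophil protease, had 33129 to 85683 CPM with a median of 46616. Prg2, the major basic protein of granules, had 20432 to 41552 CPM. These genes had at most 97.9 CPM in protease-low cells, and Mcpt8 was among the markers that divided the groups. Fcer1a, the alpha chain of the immunoglobulin E receptor, ran from 238 to 776 CPM, Hdc, which makes histamine, from 455 to 1726 CPM, and Il1rl1, the receptor for interleukin 33, from 59.7 to 843 CPM.

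Nkg7 and Gzmb were found in both groups, and Gzmb was the gene that let these cells in. Protease-high cells had 598 to 1193 CPM of Nkg7, and their Gzmb level was 1014, 539, 281, 1262, 1598, 2820, 1048 and 270 CPM. These sums rest on 5, 11, 9, 20, 19, 3, 16 and 4 cells. The same kind of cell was frequent outside the gate. Of 665 cells in the series with at least 100 UMIs per 10000 of the mast cell and basophil markers, 368 (55.3%) held at least 2 Nkg7 UMIs, 146 held at least 2 Gzmb UMIs and 85 (12.8%) were members. These 665 cells held 65.1% of the 2187 Gzmb UMIs of the series, protease-low cells 11.4% and T cells 2.61%.

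Gzmb in these 665 cells differed between libraries. The share with at least 2 Gzmb UMIs was 15.7% of 83 cells in TO 2d 0h and 32.7% of 49 cells in TO 2d 4h. TO 4d 4h had 11.4% of 105 cells and TO 4d 24h had 31.3% of 115 cells. Among the TOE libraries, those of 4 h had 46.4% of 69 cells (day 2) and 45.5% of 55 cells (day 4), and those of 24 h had 8.75% of 80 cells (day 2) and 4.59% of 109 cells (day 4). The exact 95% Clopper-Pearson intervals of the TOE 4 h libraries (34.3% to 58.8% and 32.0% to 59.4%) lay above those of the TOE 24 h libraries (3.59% to 17.2% and 1.51% to 10.4%). As a level over the summed UMIs of these cells, Gzmb was 121, 339, 60.9, 413, 871, 246, 756 and 25.1 CPM in the library order above, so that TOE 2d 24h had the second lowest share but not the second lowest level. The intervals cover counting error only, and with 1 library per condition no test was made.

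Within the matched pairs the Gzmb UMIs per UMI of these cells had a ratio of TOE to TO of 2.57 in the 2d 4h pair (exact 95% interval 2.02 to 3.30) and of 12.4 in the 4d 4h pair (8.95 to 17.6), while the 4d 24h pair had a ratio of 0.0609 (0.0406 to 0.0882). The share of cells with at least 2 Gzmb UMIs moved the same ways, with ratios of 1.42 (0.757 to 2.77), 3.98 (1.93 to 8.69) and 0.147 (0.0449 to 0.375). The first of these intervals includes 1. Leaving Prss34, whose level differed by hour, out of the marker sum left the share of TOE 4d 24h the lowest, with 4.72%, and that of TOE 2d 4h the highest, with 46.4%.

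**Figure D3:**
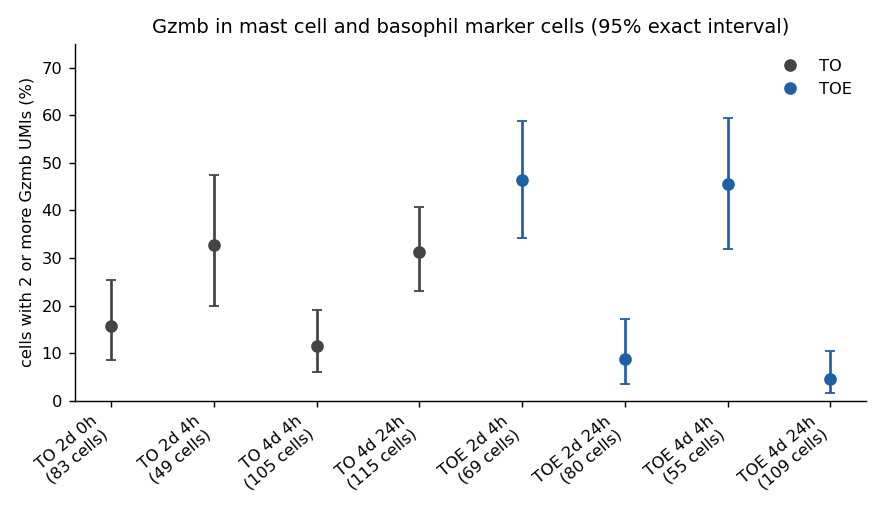
Share (percent) of cells with at least 100 UMIs per 10000 of mast cell and basophil markers that held at least 2 Gzmb UMIs, for each of the 8 libraries, with exact 95% intervals that cover counting error only. The TOE libraries of 4 h have the highest shares, 46.4% and 45.5%, and TOE 4d 24h has the lowest, 4.59%.

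Differences from T cells were measured on UMIs summed per library, with the library as a block in edgeR's quasi-likelihood test and Benjamini-Hochberg adjustment over all genes tested at a threshold of 0.05. The T cells were 841 cells with at least 2 Cd3 UMIs that met the B cell and granulocyte limits. In the 8 libraries 979 of 8026 genes (12.2%) were higher and 986 (12.3%) lower in the gated cells. A second comparison used the 138 T cells that also met the Nkg7 and cytotoxic limits, of which 6 libraries held at least 10, and there 527 of 6238 genes (8.45%) were higher and 446 (7.15%) lower. The gate fixed the direction of the Cd3 chains, and T cell genes follow them. In the first comparison only the gated cells had to meet the Nkg7 and cytotoxic limits, so genes that go with these were favoured there.

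The largest rises against T cells were mast cell and basophil genes, which were abundant in the protease-high cells. Mcpt10 was higher by 9.98 on the log2 scale (SE 0.34, adjusted p 6.1e-12), Hdc by 9.98, Fcer1a by 9.87, Prg2 by 9.84, Cma1 by 9.55 and Mcpt8 by 8.99, each in 8 of 8 libraries. Once protease-high cells were left out, with 7 libraries holding enough cells, the differences were 0.25 for Mcpt10, 0.78 for Prg2, 0.61 for Mcpt8 and -0.31 for Prss29. None of these passed. All 9 tested mast cell and basophil markers rose in both comparisons, with median differences of 8.92 and 9.01. Among the 12 largest rises against the cytotoxic T cells were also Prss34 (9.95), Prss29 (9.50), Ms4a2 (9.27) and Cpa3 (8.99). The largest falls against T cells were Siglech (-11.32), Ms4a4c (-9.66), P2ry12 (-8.11) and Themis (-7.16).

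Siglech is a marker of plasmacytoid dendritic cells, and 185 of the 841 T cells held a Siglech UMI, at 252 to 920 CPM per library. Without those cells 791 genes were higher and 796 lower of 8030 tested. Its level in the cytotoxic T cells was near 0, at 0.79 CPM over all of them. Among the 12 largest falls against these were Ms4a4c (-9.24, SE 0.44, adjusted p 4.1e-08), the T cell co-receptor chain Cd8b (-7.79), the Ly49 family receptor gene Klra22 (-6.02), the lymphocyte GTPase gene Gimap4 (-5.57) and the checkpoint receptor Tigit (-4.65), each lower in 6 of 6 libraries.

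Cytotoxic granule genes outside the gate were mostly higher than in T cells, with 11 of 14 tested higher and 1 lower and a median of 1.37, against 12.2% higher, 12.3% lower and a median of -0.03 over all genes. The gate asked the gated cells and not these T cells for granule genes, so a rise of such genes was favoured. Against cytotoxic T cells 6 of 14 were higher and 1 lower with a median of 0.68 (all genes 8.45% higher, 7.15% lower and a median of -0.02). Srgn, the proteoglycan on which granule proteases are packed, was higher by 2.95 (SE 0.20, adjusted p 2.5e-08) and Ctsd, a lysosomal protease, by 1.73. Gzmk was higher by 1.28 (SE 0.37, adjusted p 0.024), whereas Ctsw, a cathepsin of cytotoxic lymphocytes, was lower by 0.84 on the log2 scale. Srgn was also at 7209 to 11227 CPM in protease-high cells and at 277 to 1108 CPM in protease-low cells, with no overlap. With protease-high cells left out (a choice made once the values were known) the differences of Srgn (0.46), Ctsd (0.30) and Ctsw (-0.45) did not pass, whereas that of Gzmk did (1.74), and 9 of 12 granule genes had a positive difference with a median of 0.38. With no library block neither Ctsw nor Gzmk passed. Gzmk kept its direction but did not pass without TO 2d 0h, TO 4d 24h, TOE 2d 24h or TOE 4d 4h (adjusted p 0.067 to 0.12).

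NK receptors and adaptors rose against T cells in 19 of 28 tested genes and fell in 4 (median 1.67), where 12.2% of all genes rose and 12.3% fell. The gate favoured this direction too, since these T cells did not have to meet its Nkg7 and cytotoxic limits. Against cytotoxic T cells 10 of 31 rose and 10 fell (median -0.13), where 8.45% of all genes rose and 7.15% fell. With protease-high cells left out, 17 of 29 differences were positive with a median of 0.33 (all genes -0.0028), so the sign of the median depended on the protease-high cells. The adaptors Tyrobp and Fcer1g were higher by 2.71 (SE 0.35) and 2.27 (SE 0.23), the lectin receptor Klri1 by 3.01 (SE 0.40) and Klrb1a by 0.91 (SE 0.19, adjusted p 0.0030). The falls included Klra22 and Tigit above. With protease-high cells left out these differences were 2.96 for Tyrobp, 1.94 for Fcer1g, 3.47 for Klri1 and 1.36 for Klrb1a.

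Transcription factors and cytokine receptors differed in both directions. Of 20 tested lymphocyte transcription factors 8 rose and 6 fell against T cells, where 12.2% of all genes rose and 12.3% fell. Against cytotoxic T cells 3 rose and 5 fell (median -0.017), where 8.45% of all genes rose and 7.15% fell. With protease-high cells left out, 13 of 20 of the latter differences were positive with a median of 0.27. Rora was higher by 1.69 (SE 0.32, adjusted p 0.0012) and Foxo1, a factor of resting lymphocytes, lower by 0.97 (SE 0.19) against cytotoxic T cells. Lef1, a Wnt-pathway factor of naive T cells, was at -1.89 (SE 0.17, adjusted p 8.3e-07). With protease-high cells left out, Rora differed by 2.14 and passed, and Foxo1 differed by -0.57 and did not, nor did it with no library block. Of 14 cytokine receptors only Il1rl1 rose against cytotoxic T cells (4.96, SE 0.64), and 3 fell, where all genes had 8.45% higher and 7.15% lower. Protease-high cells held 59.7 to 843 CPM of Il1rl1.

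Effector cytokines and chemokines rose in 6 of 9 tested genes against T cells, where 12.2% of all genes rose. Against cytotoxic T cells 3 of 8 rose and 1 fell, where 8.45% of all genes rose and 7.15% fell. Xcl1 was higher by 1.28 (SE 0.22, adjusted p 0.00073) and Ccl4 lower by 1.79 (SE 0.42, adjusted p 0.0072), a call that was lost with no library block. Ccl5 differed by 0.58 (SE 0.29, adjusted p 0.21), and the cytotoxic T cells ran from 1452 to 10523 CPM over the 6 libraries. The call depended on the setting: Ccl5 was higher by 1.00 without TOE 2d 4h, the library with that highest value (adjusted p 6.49e-05), and it also passed with no filter on low counts (0.65) and with protease-high cells left out (1.01).

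Cell cycle genes moved one way in both comparisons, with 12 of 35 higher against T cells, 13 of 29 higher against cytotoxic T cells and none lower, where 12.2% and 8.45% of all genes were higher. The medians were 0.51 and 0.92. Mki67, a marker of cycling cells, was higher by 1.64 (SE 0.30, adjusted p 0.00097) and the tubulin regulator Stmn1 by 1.70 (SE 0.26) against cytotoxic T cells. With protease-high cells left out, all 26 cell cycle genes that could be tested still had positive differences from cytotoxic T cells. Mki67 differed by 1.61 and Stmn1 by 1.48 in that fit.

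Against cytotoxic T cells 4 of 14 heat shock genes fell and none rose, where 7.15% of all genes fell, with Dnaja1, a co-chaperone of Hsp70, at -0.56 (SE 0.17, adjusted p 0.032), a call that was lost without any of 4 of the libraries (adjusted p 0.051 to 0.15), with DESeq2, with no filter on low counts and with no library block. Of 11 interferon-stimulated genes 3 fell, with Ifi27 at -1.31 (SE 0.33), not called without TOE 4d 4h, with protease-high cells left out or with no library block, and the immunoproteasome subunit Psmb8 at -0.58 (SE 0.16), not called without any of 3 libraries, with DESeq2, with no filter or with no library block. Ldha, the last enzyme of anaerobic glycolysis, was higher by 1.10 (SE 0.19, adjusted p 0.00058), 1 of 2 glycolysis genes that rose of 14, where 8.45% of all genes rose. With protease-high cells left out, 6 of 12 such genes had a positive difference with a median of 0.04. Ldha differed by 0.765 in that fit and passed. Of the T cell list 10 of 11 tested genes fell, a direction that the gate on Cd3 favoured.

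Of 9 surface genes of maturation 4 rose and 2 fell against cytotoxic T cells, where 8.45% of all genes rose and 7.15% fell, and 4 of 8 had a positive difference with protease-high cells left out (median 0.096). Klrg1, an inhibitory receptor of mature lymphocytes, was higher by 2.68 (SE 0.49, adjusted p 0.00097) and Cd7 by 1.80 (SE 0.36), while the adhesion gene Cd2 was lower by 0.93 on the log2 scale, all against cytotoxic T cells. With protease-high cells left out the differences of Cd7 (0.43) and Cd2 (-0.48) did not pass, nor did those of Mt1 (0.42) and Nfil3 (0.71) below. Of 17 homing and adhesion genes 1 rose and 2 fell, with the integrin chain Itga4 at -0.75 (SE 0.21). Of 24 immediate-early genes 3 fell, of 15 glucocorticoid-responsive genes 1 rose (the metallothionein Mt1, 1.01, SE 0.18), and of 8 clock genes 1 rose (Nfil3, which is also a factor of NK cell development, 0.92, SE 0.25). The calls of Cd2, Itga4 and Nfil3 were each lost without 2 or 3 of the 6 libraries, taken 1 at a time, and also with no library block, and DESeq2 called neither Itga4 nor Nfil3. The counts of the homing, immediate-early, glucocorticoid and clock lists were near the 8.45% higher and 7.15% lower of all genes. Markers of other cells were tested too: 3 of 7 dendritic, 2 of 4 plasma cell, 3 of 6 innate lymphoid and 2 of 3 progenitor genes rose, 1 innate lymphoid (Tcf7) and 1 progenitor gene (Myb) fell, and none of 8 neutrophil, 5 monocyte and macrophage, 6 erythroid, 5 mesenchymal, 2 B cell and 1 megakaryocyte genes passed the test. Of the rising genes in these lists, Kit and Gata2 were among the markers that divided the groups, and Il1rl1 was held by protease-high cells. In the fit without protease-high cells, 2 of 2 testable mast cell and basophil markers still had a positive difference, with a median of 2.82. Mcpt8, at 0.91, did not pass in that fit. With protease-high cells left out, 1 of 3 plasma cell, 1 of 2 progenitor, 5 of 7 dendritic and 3 of 5 innate lymphoid genes had a positive difference. No granulocyte precursor or endothelial gene was tested.

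The gated cells formed a small and fairly even share of the libraries except 1. Their number was 30, 30, 29, 48, 43, 35, 49 and 11, which is 0.207%, 0.196%, 0.228%, 0.340%, 0.254%, 0.242%, 0.354% and 0.0892% of kept cells. TOE 4d 24h had the lowest share and TOE 4d 4h the highest. The protease-high cells were 5, 11, 9, 20, 19, 3, 16 and 4 of these, between 8.57% and 44.2% of the members of a library.

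The shares overlapped between arms, days and hours, and the sign of each difference given here turned when TOE 4d 24h, with 11 gated cells, was left out. The TO libraries included TO 2d 0h and not TO 2d 24h, so the arms were not fully matched for hour. The geometric mean was 0.210% in TOE and 0.237% in TO (log2 difference -0.17, exact permutation p 0.857, n = 4 libraries each). For 4 h against 0 h and 24 h it was 0.252% against 0.198% (0.35, exact permutation p 0.571), and for day 4 against day 2 the difference was -0.0067 (exact permutation p 1). All 3 adjusted p-values were 1, and the smallest p that 4 against 4 libraries allow is 0.0286, which adjustment over 3 tests would raise above 0.05 if only 1 factor separated the libraries.

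In the matched pairs the ratio of TOE to TO shares was 1.30 for 2d 4h (exact 95% interval 0.794 to 2.14) and 1.55 for 4d 4h (0.962 to 2.55), against 0.262 for 4d 24h (0.123 to 0.512). In the 4d 24h pair the ratio was 0.286 (0.106 to 0.670) for protease-low cells and 0.229 (0.0569 to 0.683) for protease-high cells. All cells with mast cell and basophil markers had ratios per kept cell of 1.27 (0.870 to 1.87), 0.481 (0.341 to 0.673) and 1.08 (0.827 to 1.42) in the 3 pairs. Entry of these cells to the gate depended on Gzmb, a gate gene, whose ratios are given above. T cells per kept cell had ratios of 1.48 (1.12 to 1.98), 1.60 (1.20 to 2.14) and 0.292 (0.197 to 0.424), and per T cell the gated cells gave 0.873, 0.969 and 0.898 in the 3 pairs, with counting intervals that all include 1 and run from 0.420 to 1.75. Over the 8 libraries there were 27.5 to 37.2 gated cells and 18.0 to 25.6 protease-low cells per 100 T cells.

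**Figure D4:**
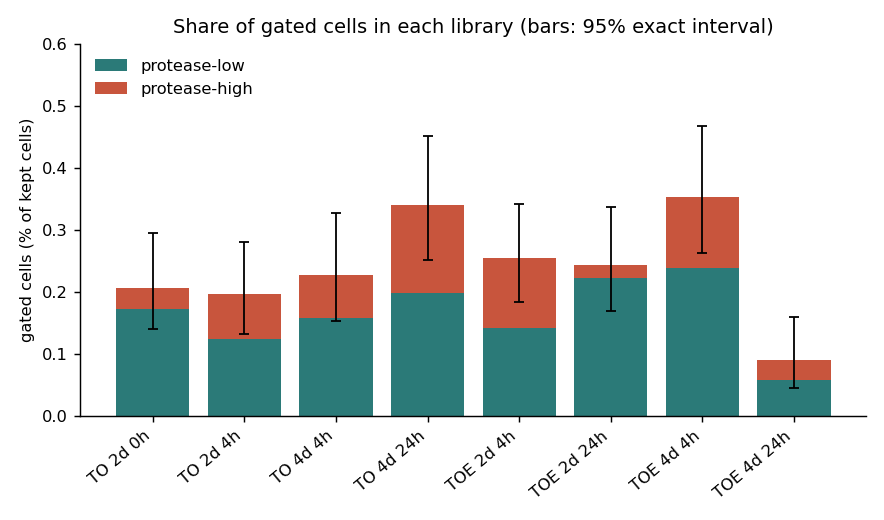
Gated cells as a percent of kept cells in each of the 8 libraries, divided into protease-low and protease-high cells, with exact 95% intervals of the total that cover counting error only. TOE 4d 24h is lowest with 0.0892%, TOE 4d 4h is highest with 0.354%, and the arms overlap.

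For expression within the gated cells, arm, day and hour were fitted together on the 8 library sums, with libraries that differ in the other factors standing in as replicates. Hour was entered as 4 h or other, so TO 2d 0h shared a level with the 24 h libraries. The arms were therefore not fully matched for hour. Between TOE and TO 0 of 6454 genes (0%) passed in either direction by edgeR, 234 had an unadjusted p under 0.05, and DESeq2 called 2 higher and 1 lower. A fit over the 6 libraries of the matched pairs with the pair as a block, added after seeing the data, called 0 of 6380 genes, with 183 at an unadjusted p under 0.05 and 2 residual degrees of freedom. No list member was called. Between days 4 and 2, 0 genes rose and 2 (0.031%) fell, which were the haemoglobin genes Hbb (-4.68, SE 0.55, adjusted p 0.012) and Hbe1 (-6.10, SE 0.73, adjusted p 0.012). Both are genes of red blood cells. The Hbb call was lost without any 1 of the 4 TO libraries (adjusted p 0.056 to 0.12), and the Hbe1 call without TO 2d 4h, TO 4d 4h, TO 4d 24h or TOE 4d 24h (adjusted p 0.058 to 0.28). Hbe1 did not pass the filter on low counts without TO 2d 0h or TOE 2d 24h. Hbb was not called with protease-high cells left out, a fit that also lost TOE 4d 24h. Hbe1 was still called in that edgeR fit (-6.17, adjusted p 0.0018).

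The haemoglobin change rested on few cells. Of the 275 members 61 held Hbb and 21 held Hbe1, and 3 cells held 51.6% of the 184 Hbe1 UMIs. Hbb in the kept cells outside the gate was 2906, 330, 200, 288, 99.4, 2042, 184 and 1.47 CPM, with TO 2d 0h and TOE 2d 24h the highest and the days overlapping. Hbe1 there was at 0.725 to 3.43 CPM. The part of free erythroid RNA in this difference was not tested.

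Between 4 h and the other hours 23 genes (0.356%) were higher and 43 (0.666%) lower, and DESeq2 called 34 and 66. The protease Prss29 fell by 6.48 on the log2 scale (SE 0.35, adjusted p 5.5e-06) and the basophil protease Prss34 by 4.49 (SE 0.41, adjusted p 0.00068). The mitochondrial gene COX2 fell by 1.55 (SE 0.19, adjusted p 0.0035), and the ribosomal protein gene Rpl23a rose by 1.32 (SE 0.17, adjusted p 0.0069). Without TOE 2d 24h the counts were 0 higher and 5 lower, and without TOE 4d 4h they were 45 and 85. Prss29 and Prss34 passed without each library in turn, COX2 was lost without TOE 2d 24h and Rpl23a without TO 2d 0h, TO 2d 4h or TOE 2d 24h (adjusted p 0.056 to 0.0653). Among the called ribosomal protein genes, with Fau counted among them, 10 fell and 5 rose. Of the lists, Ly49s4 of the NK receptors rose, and the glucocorticoid-responsive Txnip, the bone matrix genes Col1a2 and Bglap, Hbb and Prss34 fell. The Col1a2 call was lost without TO 2d 4h, TO 4d 4h or TOE 2d 24h (adjusted p 0.067 to 0.125).

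Most of these differences were present in the whole libraries. Of the 66 called genes 64 had the same direction in kept cells outside the gate, Hbe1 and Epx being the exceptions, and 49 had no overlap there between the 4 h and the other libraries, where the background was 22.4% of genes. COX2 outside the gate was 4742, 2173, 1724, 5766, 1602, 5714, 1789 and 2549 CPM. The hour of collection and a difference between the libraries in preparation cannot be told apart in this design.

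The protease difference was large in the cells that make these proteases. In protease-high cells Prss29 had 32365, 207, 195, 19333, 232, 40303, 332 and 25044 CPM, so that the 4 libraries at 4 h lay between 195 and 332 and the others between 19333 and 40303. In cells with mast cell and basophil markers outside the gate it had 148 to 238 CPM at 4 h and 13905 to 30292 CPM at the other hours. Prss34 in protease-high cells had 444 to 598 CPM at 4 h and 11282 to 20075 CPM at the other hours. The related Mcpt8 and Mcpt10 did not part in this way: Mcpt8 was 33129 to 48220 CPM at 4 h and 45012 to 85683 CPM at the other hours.

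**Figure D5:**
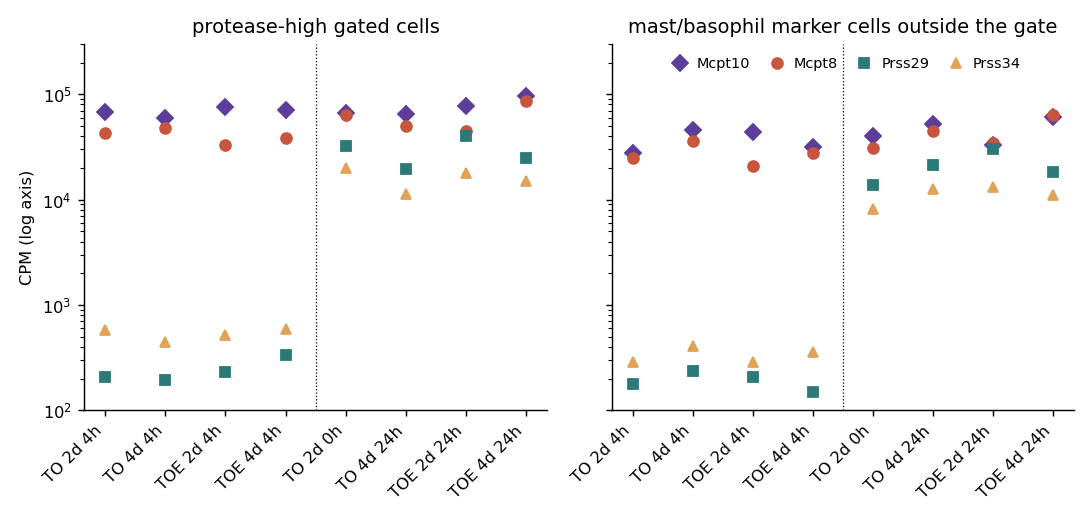
Levels (CPM of summed UMIs, log axis) of the proteases Prss29, Prss34, Mcpt8 and Mcpt10 per library in protease-high gated cells and in other cells with mast cell and basophil markers, by hour of collection. Prss29 and Prss34 are far lower in every 4 h library, with no overlap, whereas Mcpt8 and Mcpt10 overlap between the hours.

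In the matched pairs the genes with the largest changes between TO and TOE gated cells were mostly carried by single cells. Of the 30 changes chosen by size, 10 in each pair and some genes in more than 1 pair, 25 had more than 50% of the gene's UMIs in 1 cell of the library where it was high. Spp1, the secreted matrix protein osteopontin, was at 1893 CPM in TO and 25.2 CPM in TOE at 2d 4h, and 1 cell held 99.7% of its UMIs in TO. Mcpt2, a mucosal mast cell protease, had a log2 ratio of 6.28 in the 2d 4h pair, with 96.4% of its UMIs in 1 cell, and 2.82 in the 4d 4h pair, with 92.1% in 1 cell. Its ratio was -6.07 in the 4d 24h pair, with 55.9% in 1 cell.

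A few genes were spread over more cells. RT1-A3, a class I histocompatibility gene of the family that NK receptors read, was at 301 CPM in TOE and 51.4 CPM in TO at 4d 4h, where 40 of 49 TOE members held it and the kept cells outside the gate had 205 and 88.4 CPM. Class I genes of the rat are near-identical copies, so this split is uncertain. Spats2l was at 108 and 22.8 CPM in TOE and TO of the same pair, held by 14 of 49 members, with 4.43 and 7.55 CPM outside the gate. Within the gate it was at 317 and 86.5 CPM in protease-high cells and at 7.07 and 0 CPM in protease-low cells.

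At 4d 24h Hba-a1, the alpha chain of haemoglobin, was found in 47 of 48 TO members at 657 CPM and had 0 UMIs in the 11 TOE members, while the cells outside the gate had 5561 and 41.2 CPM. Nlrp3, the inflammasome sensor of myeloid cells, was at 138 CPM in TO, in 17 of 48 members, and at 0 in TOE, against 91.2 and 26.0 CPM outside the gate. In TO its level was 266.5 CPM in protease-high cells and 31.2 CPM in protease-low cells. The 0 UMIs in 11 members allow levels of up to 25.2 CPM (exact 95% Poisson limit), and with 1 library per condition none of the pair differences has a replicate check.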

How the data were processed

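Droplet single-cell RNA libraries were sequenced from osteotomy tissue, and the deposited UMI count matrices, with 1 value per gene and barcode, were used for 8 libraries (116711 barcodes, 41801 genes). The sample labelled TO 2d 24h was not analysed here. Per the submitters' processing notes, Cell Ranger 9.0.0, R 4.0.3 and Seurat were used and the builds GRCh38 and mRatBN7.2 were named, with no role given for either. Raw counts were used here, and neither ambient RNA nor doublets had been removed as far as the sources state.

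Barcodes were kept from 200 genes upwards and up to 20% mitochondrial UMIs, and the gate was applied to their raw counts. The gate, the gene lists and the marker lists were chosen with earlier results of these data known, and the division at 20 UMIs per 10000 was made after the values were seen. Scrublet scores of scanpy 1.11.5 were computed per library, with 0.25 as the limit. UMIs were summed per library and class and tested with edgeR 4.0.16 (TMM scaling, filterByExpr, quasi-likelihood) in R 4.3.3, with at least 10 cells per sum and Benjamini-Hochberg adjustment over all genes tested at 0.05. Class comparisons had the library as a block. The fit of arm, day and hour was additive over 8 libraries, with 4 residual degrees of freedom. Shares were compared by two-sided exact permutation over libraries, adjusted over 3 tests. Matched pairs have 1 library per side and no test; their log2 ratios used a prior of 0.5 UMI. CPM are UMIs per 1000000 UMIs of the class in a library.

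Genes were named by rule: the 12 largest changes in each direction that were shared by every library for class comparisons, the 10 lowest p in each direction for arm, day and hour, the 5 largest in each direction with at least 50 UMIs for each pair, and from each list the members with most UMIs. RT1-A3, Spats2l, Hba-a1 and Nlrp3 were picked out of these after their values were seen. All intervals cover counting error only. DESeq2 1.42.0, other filters, thinning to 2000 UMIs and leaving out each library were tried as alternatives, and the test scripts were checked on simulated data. Promoters came from the RefSeq table of build GRCr8 (no entry for Klrd1), whose coordinates are not those of the deposited files.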

Additional observations from a re-analysis of the deposited data

Results flagged for a closer look

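The share of gated cells moved one way in the pairs collected at 4 h and the other way in the pair collected at 24 h. The ratio of TOE to TO was 1.30 for 2d 4h and 1.55 for 4d 4h, against 0.262 for 4d 24h, where TOE held 11 gated cells. The first intervals include 1 (0.794 to 2.14 and 0.962 to 2.55), so only the last ratio was beyond counting error. T cells per kept cell had the same split, with ratios of 1.48, 1.60 and 0.292. The difference between the pairs was not tested, because each condition has 1 library.

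Gzmb UMIs per UMI of cells with mast cell and basophil markers showed the same split, with ratios of TOE to TO of 2.57 and 12.4 in the 4 h pairs and 0.0609 in the 24 h pair. These intervals all exclude 1, but they count each UMI as a separate draw and cover counting error only. By the share of cells with at least 2 Gzmb UMIs, the 2d 4h ratio was 1.42 (0.757 to 2.77), an interval that includes 1. This difference between the pairs was not tested either, and whether it belongs to the arm, the hour or the single libraries cannot be told apart.

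Single samples that stand apart within a group could not be sought, since every group has 1 library. Among all libraries TOE 4d 24h differed in kept cells that were neither gated nor T cells. Their erythroid markers summed to 422.5 CPM there against 7821 to 19330 CPM in the others. Neutrophil markers summed to 77270 CPM against 22190 to 38210 CPM. The bearing of this on the results of TOE 4d 24h was not tested.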

How the results depend on the processing

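For replicate numbers, no paired analysis was possible because every condition has 1 library. Pairing by day and hour was possible, and a fit with the day and hour pair as a block, added after seeing the data, called 0 higher and 0 lower between TOE and TO. The libraries held 11 to 49 gated cells each.

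The share differences did not pass the exact test under any alternative, in a design that could hardly pass after adjustment, and their signs changed. Leaving out each library gave log2 differences from -0.42 to 0.24 for TOE against TO, from -0.23 to 0.43 for day 4 against day 2 and from -0.0335 to 0.61 for 4 h against the other hours, with the sign of all 3 turned when TOE 4d 24h was left out. With no cell filter the day difference was 0.00274, and with cells thinned to 2000 UMIs the hour difference was -0.20. The cause was not tested.

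Against T cells, where the main fit tested 8026 genes, 589 were higher and 488 lower of 6077 tested with no library block. After thinning, where fewer cells entered, 237 were higher and 243 lower of 2030 tested. Against Nkg7-positive T cells the counts were 235 and 169 of 4467 tested with no library block and 234 and 252 of 5740 with protease-high cells left out. DESeq2 called 261 lower of 6238, the number of the main fit. Thinning could not be run there, since 1 library had enough cells. Prss29 differed from T cells by -0.31 with protease-high cells left out.

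For TOE against TO, DESeq2 called 2 higher and 1 lower, no filter on low counts gave 13 and 11, and leaving out each library gave 0 to 1 lower. For day, DESeq2 called 6 higher, no filter gave 23 higher and 17 lower, the factor alone gave 0 lower, leaving out protease-high cells gave 1 lower, and leaving out each library gave 0 to 3 higher and 0 to 3 lower. For hour, no filter gave 184 higher and 128 lower, the factor alone 57 and 112, leaving out protease-high cells 50 and 84, and DESeq2 called 66 lower. Leaving out each library gave 0 to 45 higher and 5 to 85 lower. The fits without protease-high cells also lost TOE 4d 24h, where 7 cells were left, so the 2 changes cannot be told apart there. Leaving out TOE 4d 24h alone gave 30 higher and 57 lower for hour, and 0 higher and 1 lower for day.

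In the pairs the log2 ratio turned to 1.40 for Spp1 (2d 4h) and to 3.14 for Ptgs2 (4d 24h) with protease-high cells left out, and to 0.50 for Lcn2 (4d 4h) with likely doublets left out. Each rested on few cells. Leaving out protease-high cells and Siglech-positive T cells were chosen after seeing the data.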
